A study of Caenorhabditis elegans with 11 samples.

Results

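The 44 genes described here encode nuclear subunits of the mitochondrial respiratory chain and the ATP synthase of Caenorhabditis elegans, with cytochrome c and factors that assemble complex IV. They were chosen by name from the annotation of the array: every gene whose symbol begins with nuo, nduf, atp, asb, asg, cox, ucr or cyc, and in addition gas-1, lpd-5, isp-1 and mev-1. The naming rule uses no expression value, although it was taken up with earlier results of these data known, and a gene with more than 1 probe set was represented by that with the highest mean over the 11 arrays. The 44 genes, with 60 probe sets, are part of 17118 genes that a probe set names alone, on an array of 22548 probe sets. By role, 13 belong to complex I, 1 to complex II, 6 to complex III, 2 encode cytochrome c, 7 belong to complex IV, 6 to its assembly and 9 to the ATP synthase.

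The respiratory chain lies in the inner mitochondrial membrane. Complexes I and II take electrons from NADH and succinate, coenzyme Q carries them to complex III, cytochrome c carries them to complex IV, and complex IV passes them to oxygen. Protons pumped along the way drive the ATP synthase. In C. elegans, mutants of several of these genes are known for altered life span and stress resistance, among them gas-1, mev-1 and isp-1.

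The arrays compared high with low signaling by DBL-1, a BMP-like ligand that controls body size. BW1940 carries ctIs40, an integrated transgene with additional wild-type dbl-1 and a sur-5::gfp marker (labelled dbl-1, 5 arrays), and LT186 carries sma-6(wk7), a stop codon allele of the DBL-1 Type I receptor gene (labelled sma-6, 6 arrays). Both strains were populations of whole animals hatched without food to align them at the first larval stage, grown on OP50 E. coli and collected when judged by eye to be at the fourth larval stage (L4). Each strain stands for its condition through 1 transgene or 1 allele, and the arrays held no wild type, so which strain departs from the wild type cannot be told apart. In RNA of whole animals, fewer cells of a type and less RNA per cell cannot be told apart either. The labels call the samples of a strain biological replicates.

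Expression values are estimates of fluorescence intensity on a linear scale, and each probe set's own values were compared between strains, since levels of different probe sets are not on 1 scale. The receptor gene differed as labelled: on 1 of its 2 probe sets the BW1940 arrays had sma-6 values of 82.4 to 128 and the LT186 arrays 26.5 to 33.6, and on the other 32.6 to 110.3 and 11.04 to 19.04 (log2 fold change 1.68, limma adjusted p = 0.00936). For dbl-1 the strains overlapped on both of its probe sets, and the log2 fold changes were 0.40 and 0.78 (limma, adjusted p = 0.318 and 0.117). The arrays of BW1940 replicate 1 and LT186 replicates 2 and 4 had the lowest sperm transcripts. Over 37 sperm marker genes the mean log2 value was 7.46, 5.86 and 5.51 on these 3 arrays and between 8.18 and 9.83 on the others. BW1940 replicate 1 lay nearer to BW1940 replicate 3, at 8.18, than to LT186 replicates 2 and 4. All 6 markers of hypodermis, 6 of body muscle and 6 of neurons had mean values above 0, as had the 5 yolk protein genes on the array, which mark adults, with summed values of 177 to 4252 in BW1940 and 40.0 to 2764 in LT186, where replicate 6 alone was above 296.

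Most of the 44 genes had slightly higher values in BW1940. The log2 fold change, BW1940 minus LT186 on the log2(value + 10) scale, was above 0 for 40 of the 44 genes, with a median of 0.28 and a middle range of 0.16 to 0.31. Of all probe sets tested 60.7% were above 0. At an unadjusted p under 0.05 by limma, 21 genes were higher and 1, nduf-2.2, was lower in BW1940. The same threshold took 11.7% of all probe sets tested as higher and 5.03% as lower. After Benjamini-Hochberg adjustment over all 18801 probe sets tested, 0 of the 44 genes passed, against 0.686% of all probe sets higher and 0.33% lower. The smallest adjusted p was 0.134, for atp-1. On 3 genes, nduf-11, cox-4 and atp-3, every BW1940 array lay above every LT186 array, and on 0 genes below, where 2.95% and 1.47% of all probe sets did so. A plain equal-variance t-test on the log2(value + 10) scale, adjusted over the same probe sets, passed 1 gene, atp-3 (adjusted p = 0.0484, higher in BW1940). The same test passed 1.3% of all probe sets as higher. The study's own test, a modified t-test in Probe Profiler on the expression values, was not run. The count of 21 became 11 without BW1940 replicate 5 and 12 without LT186 replicate 1, and without the 3 arrays of low sperm transcripts 9 genes were higher and 3 lower, against 9.71% and 8.71% of all probe sets.

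The shift was shared with other probe sets of high values. Of the 44 genes, 33 had a mean of at least 500 over the 11 arrays, and all 33 had a log2 fold change above 0, with a median of 0.29. Among the 1232 other probe sets at that level, 94.6% were above 0 and the median was 0.32, whereas the median of all probe sets tested was 0.08. At an unadjusted p under 0.05, 63.6% of the 33 genes and 42.2% of the 1232 other probe sets were higher in BW1940. After quantile normalization, by which the arrays come to share 1 distribution of values, the median of the 44 genes was 0.00, with 22 genes above and 22 below 0, and 0 genes were higher and 2 lower at an unadjusted p under 0.05 by limma, against 6.21% and 6.59% of all probe sets. Over all probe sets tested the unadjusted calls were 2200 higher and 946 lower as deposited, and 1167 higher and 1239 lower after that normalization.

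**Figure D1:**
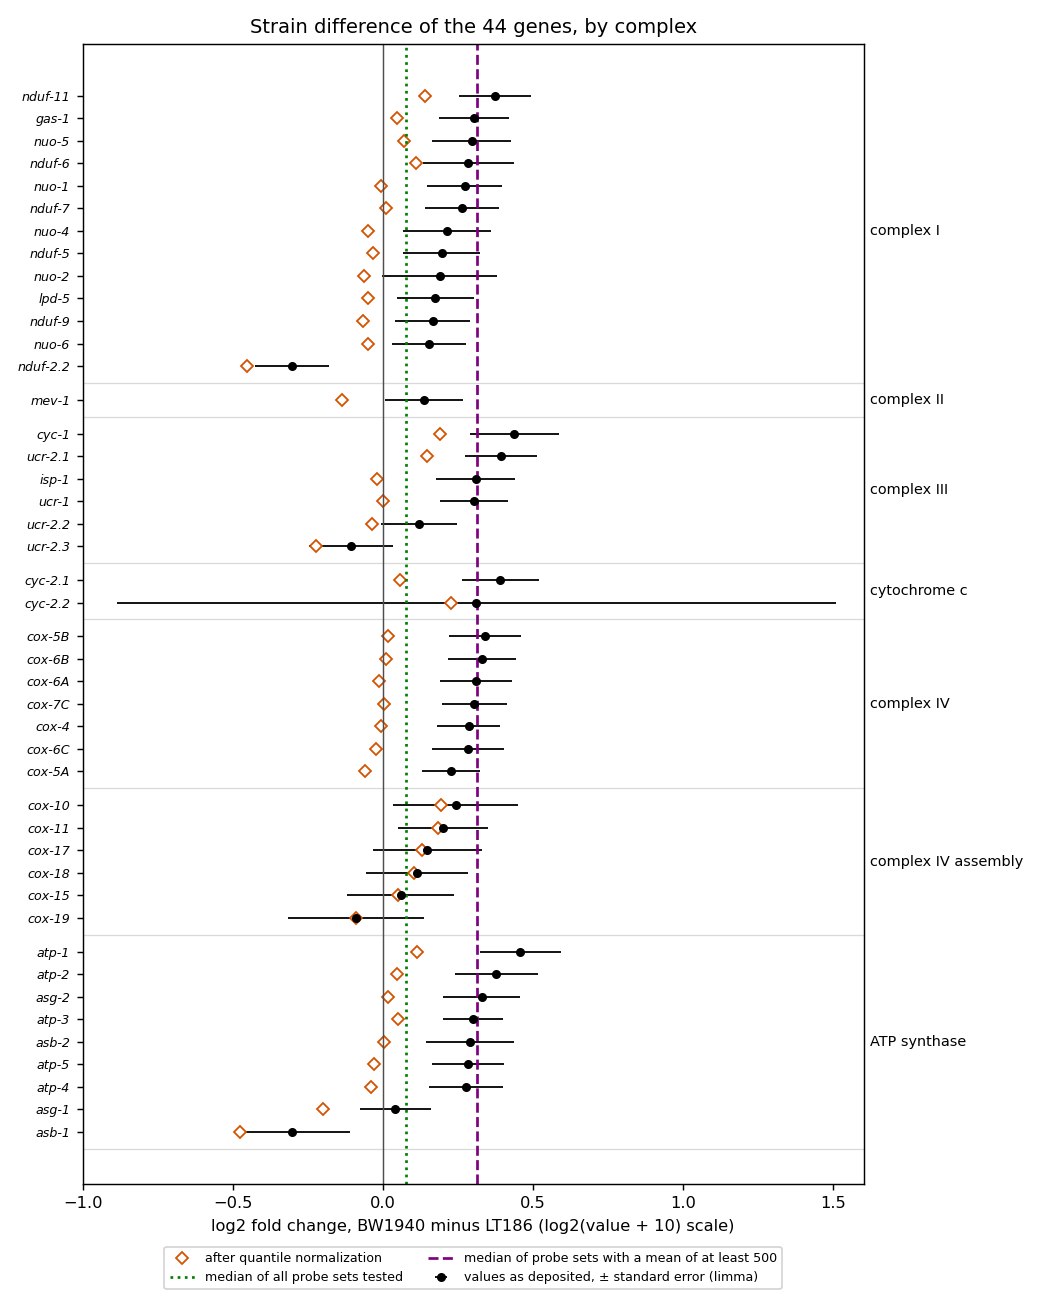
Log2 fold change of each of the 44 genes (horizontal axis, BW1940 minus LT186, log2(value + 10) scale), grouped by complex, as deposited (filled points with the limma standard error) and after quantile normalization (open diamonds). The dotted line is the median of all probe sets tested (0.08) and the dashed line that of probe sets with a mean of at least 500 (0.31). Most filled points lie near the dashed line and most diamonds near 0, with nduf-2.2, asb-1, ucr-2.3 and cox-19 below 0 in both.

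Many of the genes shared their high and low arrays, with exceptions such as asb-1, nduf-2.2, ucr-2.3, cyc-1 and cyc-2.2, described with their complexes. As the median deviation of the 44 genes from their own means over the 11 arrays, on the log2 scale, BW1940 replicates 1 to 5 had 0.17, 0.19, 0.05, 0.03 and 0.28, and LT186 had -0.36 as the lowest, -0.11 as the median and 0.12 as the highest. The strains overlapped through LT186 replicate 5, which lay above BW1940 replicates 3 and 4. LT186 replicate 1 was the lowest of the 11 arrays for 28 of the 44 genes, LT186 replicate 5 was the highest LT186 array for 28, and BW1940 replicate 5 the highest BW1940 array for 22. The mean value of all probe sets on an array followed a like order, with 126 to 142 in BW1940 and 112 (replicate 1) to 130 (replicate 5) in LT186. After quantile normalization BW1940 had median deviations of -0.06 to 0.07, within the -0.10 to 0.13 of LT186.

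**Figure D2:**
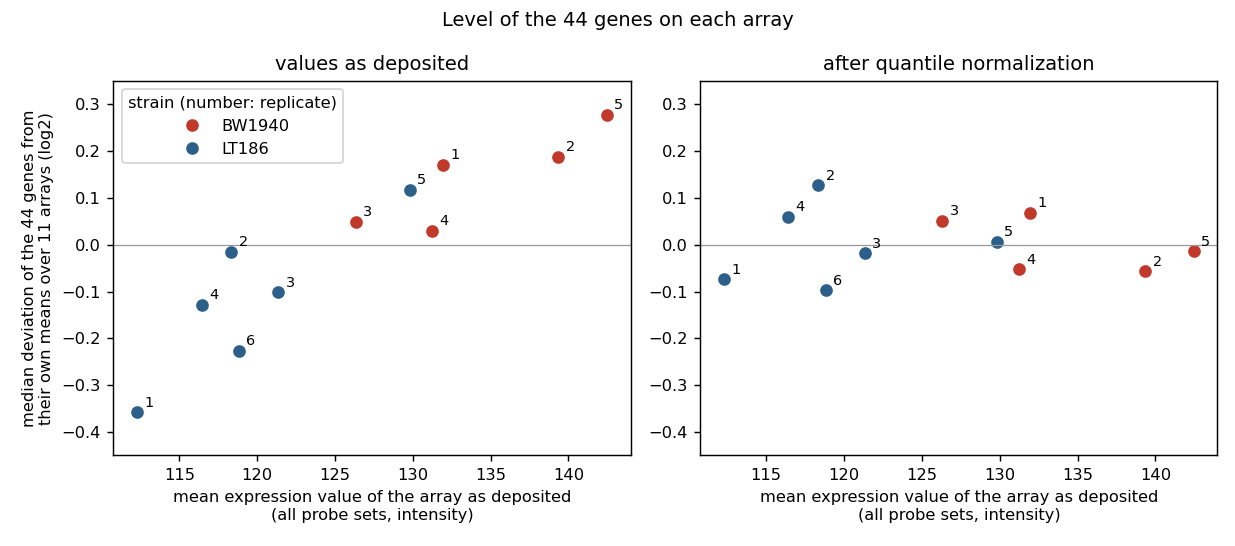
Median deviation of the 44 genes from their own means (vertical axis, log2) against the mean value of all probe sets on each array as deposited (horizontal axis, intensity), with the values as deposited on the left and after quantile normalization on the right; each point is 1 array, numbered by replicate. On the left the deviations run from -0.36 on LT186 replicate 1 to 0.28 on BW1940 replicate 5, and on the right the range is -0.10 to 0.13.

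Transcripts of some tissues moved with the strain as well. Beside the marker counts below, limma called 11.7% of all probe sets tested higher and 5.03% lower at an unadjusted p under 0.05. Of the 1232 other probe sets with a mean of at least 500, 94.6% were above 0 and 42.2% higher at that threshold. All 7 intestine markers were above 0, 6 of them at an unadjusted p under 0.05, and their summed values, 6508 to 7806 in BW1940, did not overlap with the 3975 to 5936 of LT186. Their median log2 fold change of 0.57 became 0.30 after quantile normalization, with all 7 still above 0. The sums rest mostly on markers of high values, such as asp-1, whose log2 fold change of 0.39 became 0.06. Of 10 germ-line markers 9 were below 0, 4 of them at an unadjusted p under 0.05, with sums of 2406 to 3152 in BW1940 and 2793 to 4206 in LT186. The 7 oocyte markers were all below 0, and their sums, 552 to 1548 and 605 to 2817, overlapped. All 5 yolk protein genes were above 0, with a median of 2.31 and 3 of them at an unadjusted p under 0.05. Of the 37 sperm markers 33 were above 0, with a median of 0.62 and 0 at an unadjusted p under 0.05 by limma. Their sums, 12577 to 45815 in BW1940 and 2198 to 51380 in LT186, overlapped, and the lowest were those of LT186 replicates 2 and 4. Of the 6 markers each of hypodermis, body muscle and neurons, 5, 3 and 5 were above 0. At an unadjusted p under 0.05 by limma, 0, 2 and 1 of these were higher and 0 lower. After quantile normalization 5, 0 and 4 were above 0, with medians of 0.12, -0.17 and 0.01. The 2 body muscle markers called higher, unc-54 and unc-15, then had log2 fold changes of -0.040 and -0.030. The part of these tissues in the shift of the respiratory genes was not tested.

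Complex I, which takes electrons from NADH, had 12 of its 13 genes above 0, 3 higher and 1 lower at an unadjusted p under 0.05, and a median of 0.21. Beside this count and those of the complexes and lists below stand 11.7% of all probe sets higher and 5.03% lower. Of the 1232 other probe sets with a mean of at least 500, 42.2% were higher and 0.649% lower. The accessory subunit gene nduf-11 had values of 795, 779, 759, 786 and 852 on BW1940 replicates 1 to 5, against 451 (lowest), 643 (median) and 671 (highest) in LT186. The strains did not overlap, although LT186 replicate 1 lay far below the other LT186 arrays. The ratio of means was 1.29 and the log2 fold change 0.37 (SE 0.12, limma adjusted p = 0.160; exact permutation p = 0.00216, the smallest this design allows). gas-1 encodes the 49 kDa core subunit, and its loss makes worms sensitive to volatile anesthetics. Its values were 929, 944, 969.7, 850.3 and 939 in BW1940 and 617 (lowest), 795 (median) and 866 (highest) in LT186, so that only the highest LT186 array, replicate 5, reached the BW1940 range. The log2 fold change was 0.30 (SE 0.12, limma adjusted p = 0.229, exact permutation p = 0.0108), and a second probe set of gas-1 gave 0.09.

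nduf-2.2, a paralog of gas-1 that encodes the same core subunit, ran the other way. Its values were 318, 362, 364, 395 and 365 in BW1940 and 379 (lowest), 452 (median) and 555 (highest) in LT186, where the mean was 1.25 times that of BW1940. LT186 replicates 2 and 4, both low in sperm transcripts, lay within the BW1940 range and the other 4 LT186 arrays above it. The log2 fold change was -0.30 (SE 0.12, limma adjusted p = 0.245, exact permutation p = 0.0195). It stayed below 0 under every setting tried, at -0.45 after quantile normalization, -0.37 without the 3 arrays of low sperm transcripts and -0.35 when the sperm score was a covariate, the last with an adjusted p of 0.0472. With that covariate 4.63% of all probe sets passed the adjusted threshold as lower and 4.01% as higher, and 3 of the 44 genes passed it. The unadjusted p rose above 0.05 with the replicate number as a block (log2 fold change -0.31), and without BW1940 replicate 1 and without LT186 replicates 3, 5 or 6, where the log2 fold change was -0.26, -0.28, -0.24 and -0.28. The other 10 genes of complex I had log2 fold changes between 0.15 (nuo-6) and 0.29 (nuo-5, the 75 kDa iron-sulfur subunit), which also reached an unadjusted p under 0.05.

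From complex II, succinate dehydrogenase, the naming rule took only mev-1, its cytochrome b membrane anchor. mev-1 had values of 1014, 802, 837, 972 and 919 in BW1940 and 616 (lowest), 847 (median) and 947 (highest) in LT186, and the strains overlapped widely. The log2 fold change was 0.14 (SE 0.13, limma adjusted p = 0.685) and turned to -0.14 after quantile normalization.

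Complex III, which passes electrons from coenzyme Q to cytochrome c, had 5 of 6 genes above 0, with a median of 0.31 and 4 genes higher at an unadjusted p under 0.05. Its electron carriers include cytochrome c1, encoded by cyc-1, and the Rieske iron-sulfur protein, encoded by isp-1. cyc-1 had values of 782, 828, 764, 661 and 846 in BW1940 and 404 (lowest), 584 (median) and 701 (highest) in LT186, where replicate 5 was the lowest although it was the highest LT186 array for 28 of the 44 genes. The strains overlapped in the range of 661 to 701, and the log2 fold change was 0.44 (SE 0.15, limma adjusted p = 0.173, exact permutation p = 0.0130). A second probe set of cyc-1 gave 0.23. isp-1 had a log2 fold change of 0.31 and ucr-1, a core subunit gene, one of 0.30.

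The core 2 subunit of complex III has a family of genes. ucr-2.1 had values of 892, 864, 892, 798 and 1021 in BW1940 and 557 (lowest), 675 (median) and 802 (highest) in LT186, where only replicate 2 exceeded the lowest BW1940 array. Its log2 fold change was 0.39 (SE 0.12, limma adjusted p = 0.142, exact permutation p = 0.00649). When the sperm score was a covariate, the adjusted p by limma was 0.0355 for ucr-2.1 and 0.0389 for cyc-1, both higher in BW1940, in a fit that passed 4.01% of all probe sets as higher. ucr-2.2 had values of 510.1, 449, 508, 481 and 445 in BW1940 and 347 (lowest), 457 (median) and 516 (highest) in LT186, overlapping over the whole BW1940 range, with a log2 fold change of 0.12 (SE 0.12). ucr-2.3 had values of 272, 360.5, 322, 357 and 276 in BW1940 and 293 (lowest), 322 (median) and 431 (highest) in LT186. It was highest on LT186 replicates 6 and 1, and its log2 fold change was -0.11 (SE 0.14, limma adjusted p = 0.793).

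Cytochrome c, the soluble carrier between complexes III and IV, has 2 genes whose values followed different patterns. cyc-2.1 had values of 1950.2, 2081, 1786, 1647 and 2295 in BW1940 and 1281 (lowest), 1455 (median) and 1824 (highest) in LT186. Only LT186 replicate 5 reached the BW1940 range, and the log2 fold change was 0.39 (SE 0.13, limma adjusted p = 0.167, exact permutation p = 0.0130). cyc-2.2 had values of 17.5, 277, 117, 340.0 and 229 on BW1940 replicates 1 to 5. On LT186 replicates 1 to 6 it had 329.7, -4.41, 372, 2.84, 499.9 and 406, so that the lowest values of each strain were those of BW1940 replicate 1 and LT186 replicates 2 and 4. These are the 3 arrays of lowest sperm score, and the spread of cyc-2.2 within a strain (residual SD 2.23 on the log2 scale) compares with a median of 0.18 over the 44 genes. The mean was 196 in BW1940 and 268 in LT186, a ratio of 0.73, although the log2 fold change was above 0. This log2 fold change of 0.31 (limma adjusted p = 0.946) became -0.79 without these 3 arrays and -0.36 when the sperm score was added as a covariate. A pair of ADP/ATP carrier genes, ant-1.3 and ant-1.4, picked out after their values were seen, had the same 3 arrays low: ant-1.3 had 65.3 there in BW1940 against 153 to 322 on the other BW1940 arrays, and 65.8 or less in LT186 against 309 to 352. For ant-1.4 these values were 52.1 against 144 to 315, and 65.2 or less against 263 to 307. Whether these transcripts came from sperm was not tested.

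**Figure D3:**
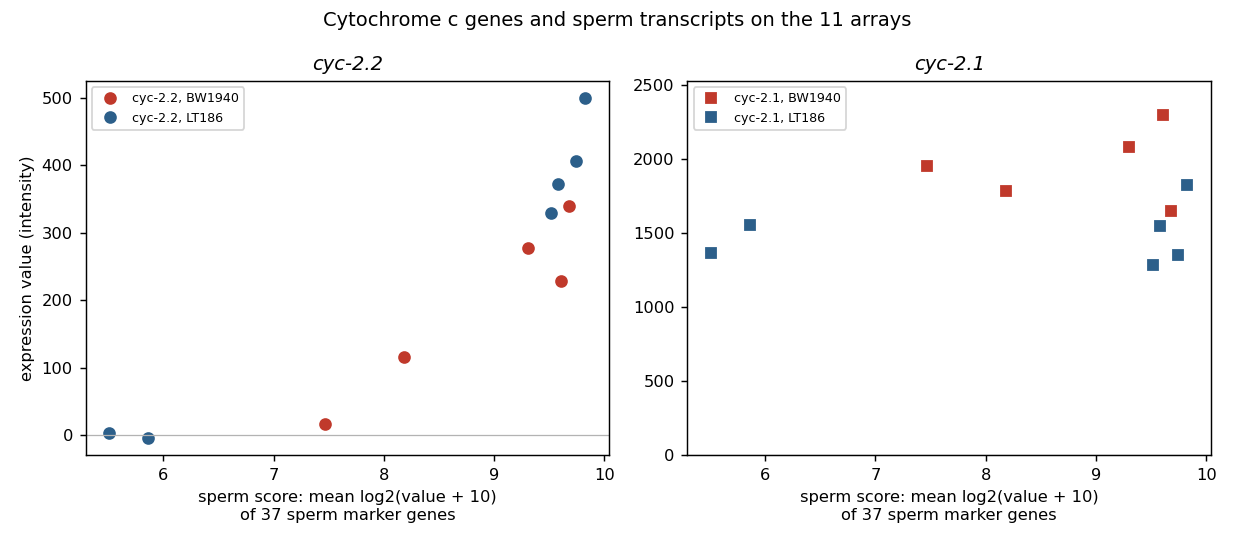
Values of cyc-2.2 (left) and cyc-2.1 (right) on the 11 arrays (vertical axes, intensity, drawn to different scales) against the sperm score (horizontal axis, mean log2(value + 10) of 37 sperm marker genes); each point is 1 array. The cyc-2.2 values are 17.5 or lower on the 3 arrays of lowest score and reach 500 at the highest, while the cyc-2.1 values of LT186 are 1362 and 1555 at its 2 lowest scores and lie between 1281 and 1824 on its other arrays.

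In complex IV, cytochrome c oxidase, the values lay close together: all 7 subunit genes were above 0 and at an unadjusted p under 0.05, with log2 fold changes from 0.23 (cox-5A) to 0.34 (cox-5B) and a median of 0.30. All 7 had a mean of at least 500. Of the 1232 other probe sets at that level 94.6% were above 0 and 42.2% higher at the same threshold. cox-6B had values of 1568, 1521, 1443, 1409 and 1746 in BW1940 and 1027 (lowest), 1217 (median) and 1436 (highest) in LT186. The 1 LT186 array within the BW1940 range was replicate 5, and the log2 fold change was 0.33 (SE 0.11, limma adjusted p = 0.178, exact permutation p = 0.00649). cox-7C had values of 1455, 1451, 1267, 1327 and 1503 in BW1940 and 994 (lowest), 1123 (median) and 1312 (highest) in LT186, again with replicate 5 alone above the lowest BW1940 array. Its log2 fold change was 0.30 (SE 0.11, limma adjusted p = 0.192, exact permutation p = 0.00866). cox-4 had values of 1291, 1167, 1127, 1263 and 1295 in BW1940 and 837 (lowest), 1022 (median) and 1120.1 (highest) in LT186. The strains did not overlap, by a margin of 1127 to 1120, and the log2 fold change was 0.28 (SE 0.11, limma adjusted p = 0.205, exact permutation p = 0.00433). After quantile normalization the 7 values lay between -0.06 and 0.02.

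The 6 assembly genes of complex IV, which make heme A, deliver copper or insert a subunit into the membrane, had low values, and 5 of them were above 0 with a median of 0.13. At an unadjusted p under 0.05, 0 of them were higher or lower by limma. cox-11, a copper insertion factor, had values of 155, 200.2, 177, 122 and 202 in BW1940 and 125 (lowest), 145 (median) and 179 (highest) in LT186, and the strains overlapped. Its log2 fold change was 0.20 (SE 0.15, limma adjusted p = 0.573). cox-10, which adds the farnesyl tail of heme A, had values of 48.9, 20.6, 36.5, 34.6 and 58.2 in BW1940 and 23.9 (lowest), 29.2 (median) and 42.4 (highest) in LT186. These overlapped throughout, with a log2 fold change of 0.24 (SE 0.21, limma adjusted p = 0.639). The other 4, cox-15, cox-17, cox-18 and cox-19, lay between -0.09 and 0.15. Quantile normalization moved the median of these 6 genes little, to 0.12.

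The ATP synthase had 8 of 9 genes above 0, 6 of them at an unadjusted p under 0.05, with a median of 0.29. atp-1, which encodes the alpha subunit of the catalytic head, had values of 2167, 2458, 2034, 1920.3 and 2784 in BW1940 and 1401 (lowest), 1607 (median) and 2064 (highest) in LT186. Replicate 5 alone of the LT186 arrays lay within the BW1940 range, and the ratio of means was 1.38. The log2 fold change, 0.46 (SE 0.13, limma adjusted p = 0.134, exact permutation p = 0.00866), was the highest among the 44 genes and 0.11 after quantile normalization. The beta subunit gene, atp-2, had a log2 fold change of 0.38 (SE 0.14). atp-3, the gene of the oligomycin sensitivity conferring protein, had values of 880.5, 997, 827, 846 and 852 in BW1940 and 633 (lowest), 714 (median) and 769.8 (highest) in LT186. The strains did not overlap, and the log2 fold change was 0.30 (SE 0.10, limma adjusted p = 0.167; exact permutation p = 0.00216, the smallest this design allows).

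**Figure D4:**
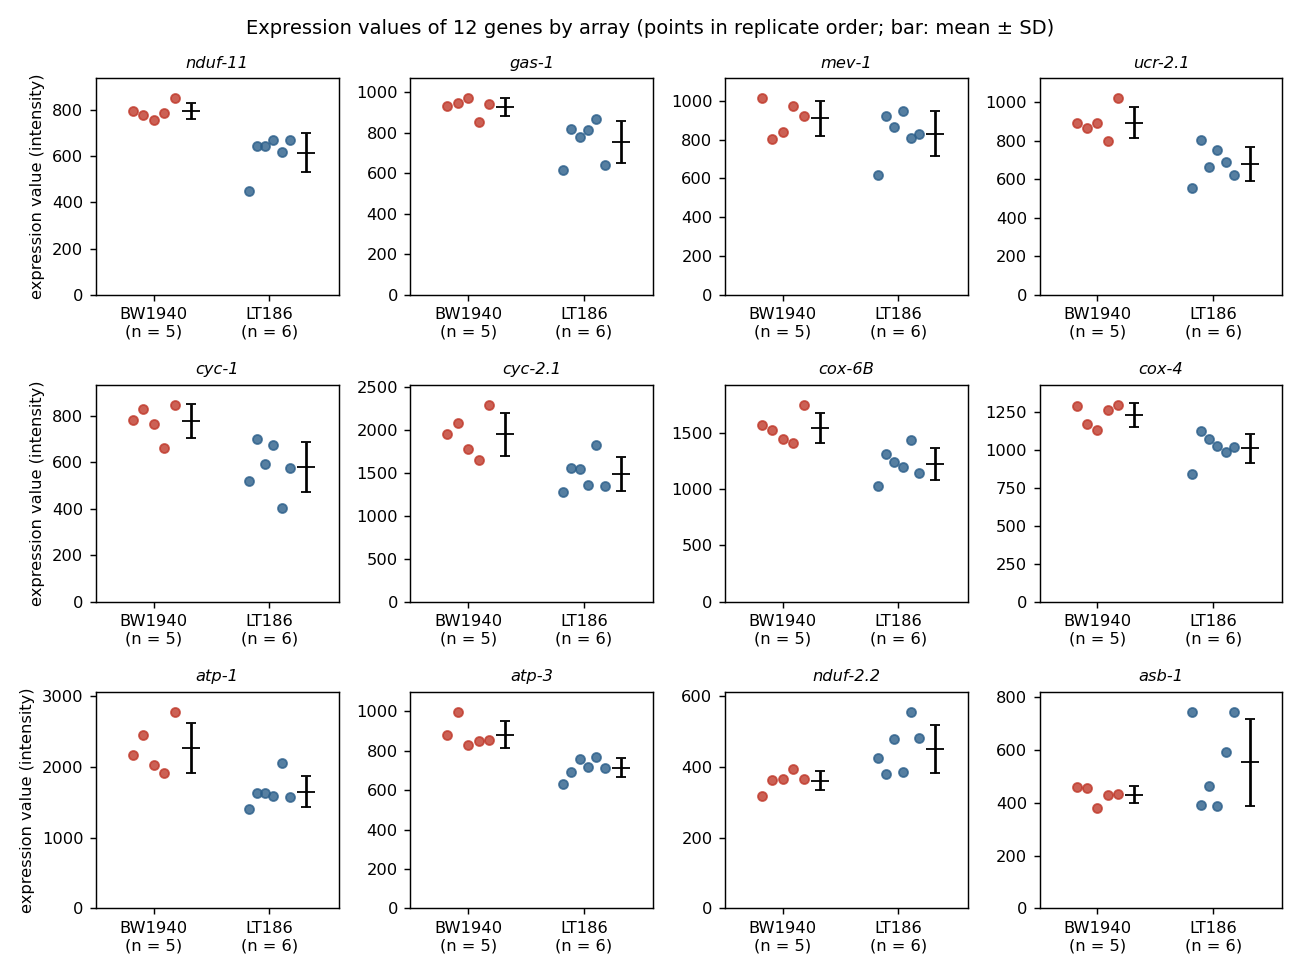
Expression values (vertical axes, intensity, from 0) of 12 of the genes on the 5 BW1940 and 6 LT186 arrays, in replicate order within a strain, with mean and SD beside them. The strains are apart for nduf-11, cox-4 and atp-3 and overlap for the other 9 genes; nduf-2.2 and asb-1 have the higher mean in LT186.

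Subunits b and g of the ATP synthase each have a pair of genes. asb-1, a subunit b gene, had values of 459, 454, 381, 428 and 431 in BW1940 and, on LT186 replicates 1 to 6, 744, 389.9, 463, 386, 590.3 and 743. LT186 replicates 1, 5 and 6 lay above every other array and replicates 2 and 4 within the BW1940 range. The log2 fold change was -0.30 (SE 0.19, limma adjusted p = 0.484), and -0.48 after quantile normalization. The summed oocyte markers were highest on LT186 replicates 6 (2817) and 1 (1904), whereas LT186 replicate 5 had 1121. That was below BW1940 replicates 5 (1548) and 4 (1238) and LT186 replicate 3 (1406), whose asb-1 values were 431, 428 and 463. Whether asb-1 followed the oocyte transcripts was not tested. Its partner asb-2 had values of 1280.3, 999, 1006, 1042 and 1154 in BW1940 and 683 (lowest), 919.6 (median) and 1143 (highest) in LT186. LT186 replicates 1 and 5, among the 3 highest for asb-1, were the lowest for asb-2, and the log2 fold change was 0.29 (SE 0.15, limma adjusted p = 0.347). asg-1 encodes subunit g and had values of 759.8, 758, 639, 726 and 728 in BW1940 and 604 (lowest), 673 (median) and 859 (highest) in LT186, with a log2 fold change of 0.04 (SE 0.12). A second probe set of asg-1 gave 0.27. asg-2 had values of 1478, 1542, 1231, 1265 and 1633 in BW1940 and 931 (lowest), 1156 (median) and 1336 (highest) in LT186, of which replicates 2 and 5 overlapped with BW1940. Its log2 fold change was 0.33 (SE 0.13, limma adjusted p = 0.232).

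Ratios of paralogs within an array depend little on a factor common to all probe sets of that array, so 6 pairs were compared on that scale, each by an exact two-sided permutation test with p adjusted over the 6 pairs. In every pair the strains overlapped on at least 1 array. The log2 ratio of nduf-2.2 to gas-1 was -1.52, -1.36, -1.39, -1.09 and -1.34 on BW1940 replicates 1 to 5 and -1.09 (lowest), -0.66 (median) and -0.40 (highest) in LT186. The ratio was lower in BW1940 by a mean log2 difference of -0.61 (exact permutation p = 0.0108, adjusted 0.0346), and the unadjusted p stayed under 0.05 in every setting tried, leaving out each array included. After quantile normalization it was -0.50 (exact p = 0.0216). The log2 ratio of asg-1 to asg-2 was -0.95, -1.01, -0.94, -0.79 and -1.16 in BW1940 and -0.91 (lowest), -0.68 (median) and -0.38 (highest) in LT186. BW1940 replicate 4 lay among the LT186 arrays, and the difference was -0.29 (exact permutation p = 0.0173, adjusted 0.0346; exact p = 0.0584 after quantile normalization). With the mean of all probe sets of each gene the difference was -0.18 (exact p = 0.0476). The log2 ratio of ucr-2.2 to ucr-2.1 was -0.79, -0.93, -0.80, -0.72 and -1.18 in BW1940 and -0.83 (lowest), -0.60 (median) and -0.45 (highest) in LT186, overlapping through LT186 replicate 6. Its difference was -0.27 (exact permutation p = 0.0152, adjusted 0.0346). It was -0.11 with the mean of all probe sets of each gene (exact p = 0.333), and the second probe set of ucr-2.2 gave a log2 fold change of 0.45. The exact p was 0.0541 after quantile normalization and 0.0857 without the 3 arrays of low sperm transcripts. The first gene of 5 of the 6 pairs (all but asg-1) had a mean under 500, the second genes all had means above it, and the shift of bright probe sets given above bears on such ratios.

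For the remaining pairs the adjusted p was above 0.05. The log2 ratio of asb-1 to asb-2 was within -1.46 to -1.12 on the 5 BW1940 arrays and -1.53 (lowest), -0.68 (median) and 0.12 (highest) in LT186. Within LT186, replicates 2 and 4 were at or near the BW1940 values and replicates 1, 5 and 6 far above. The difference of -0.59 had an exact permutation p of 0.106 (adjusted 0.127), and without LT186 replicate 2 it was -0.75 (exact p = 0.0238). It was -0.91 without the 3 arrays of low sperm transcripts (exact p = 0.0286) and -0.73 with LT186 replicates 2 and 4 averaged (exact p = 0.0476). After quantile normalization it was -0.48 (exact p = 0.182). With 1 array left out the exact p ran from 0.0238 to 0.190. For ucr-2.3 to ucr-2.1 the difference was -0.50 (exact permutation p = 0.0584, adjusted 0.0877), and it was -0.58 without BW1940 replicate 4, -0.59 without LT186 replicate 2 and -0.56 without LT186 replicate 4 (exact p = 0.0429, 0.0397 and 0.0476). It was -0.37 after quantile normalization (exact p = 0.134). Without BW1940 replicate 5 it was -0.40, with the highest exact p of those with 1 array left out, 0.119. For cyc-2.2 to cyc-2.1 it was -0.08 (exact permutation p = 0.961), and -1.17 without the 3 arrays of low sperm transcripts (exact p = 0.0286). The part of the germ line, whose markers were mostly below 0 as given above, in the paralog ratios was not tested, nor was cross-hybridization between paralogs.

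**Figure D5:**
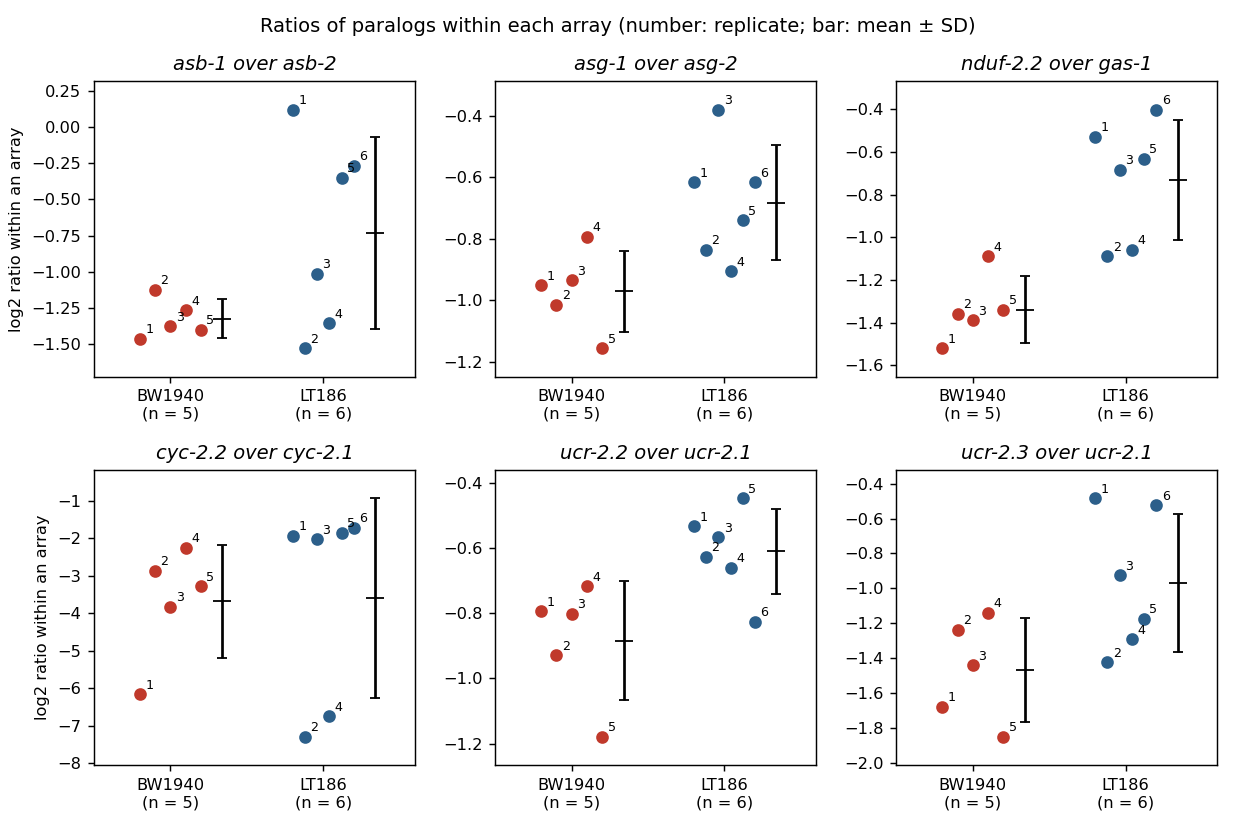
Log2 ratio of 6 pairs of paralogs within each array (vertical axes, log2, different scales), for the 5 BW1940 and 6 LT186 arrays numbered by replicate, with mean and SD beside them. For nduf-2.2 over gas-1 the BW1940 arrays lie between -1.52 and -1.09 and the LT186 arrays between -1.09 and -0.40; for asb-1 over asb-2 the LT186 arrays spread from -1.53 to 0.12.

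The 44 genes lay on all 6 chromosomes (WBcel235 assembly, RefSeq), with 14 on I, 4 on II, 12 on III, 5 on IV, 4 on V and 5 on X. That put 11.4% of them on the X chromosome, where 14.1% of all genes tested lay. The X-linked genes, asb-2, asg-2, gas-1, ucr-2.1 and ucr-2.2, were all above 0, with a median of 0.30, and the 39 autosomal genes had a median of 0.27. The genes below 0 were autosomal (nduf-2.2, asb-1, ucr-2.3 and cox-19), and of the 6 pairs compared, 4 set an autosomal gene against an X-linked one, namely asb, asg, nduf-2.2 with gas-1, and ucr-2.3 with ucr-2.1. The difference of the log2 ratio was below 0 in all 6 pairs, the pair of X-linked genes (ucr-2.2 with ucr-2.1) and the pair of autosomal genes (cyc-2.2 with cyc-2.1) included, though for the last it was 0.17 after quantile normalization and 0.62 with an offset of 1. The sign depends on which gene was put first, and in each pair that was the gene with the lower mean value. As ucr-2.1 also stands in both ucr-2 pairs, the common sign was not read as agreement between pairs. In 14 of the 44 genes 16 further probe sets were present, and all 16 had a log2 fold change above 0. Of these, 9 were within 0.1 of the chosen probe set and the farthest 0.33 away. The 4 genes below 0 had 1 probe set each, so the 16 bear on none of them. Most of the 16 had a mean of at least 500, a level at which 94.6% of the 1232 other probe sets were above 0.

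Other genes of the pathway were read from lists drawn up by function. Of 31 further nuclear subunits on the array, 28 were above 0, with a median of 0.25, 9 higher and 1 lower at an unadjusted p under 0.05, and 0 past the adjusted threshold of limma. nduv-2, a complex I flavoprotein gene, had a log2 fold change of 0.36 (SE 0.09, limma adjusted p = 0.0892), and Y82E9BR.3, a subunit c gene of the ATP synthase, had 0.42 (SE 0.14, adjusted p = 0.163). The median of these 31 genes after quantile normalization was 0.00, as for the 44 genes. The mitochondrial genome encodes 12 core subunits, of which 8 were on the array. All 8 were above 0, 7 of them at an unadjusted p under 0.05, with a median of 0.33, and 1 passed the adjusted threshold. This was ND5, a complex I core subunit, with a mean of 507 ± 61.0 (SD) in BW1940 and 92.9 ± 11.8 in LT186 and a log2 fold change of 2.33 (SE 0.12, limma adjusted p = 9.77e-06). ND4, another core subunit of complex I, had 0.39 (SE 0.13, adjusted p = 0.167).

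Genes that serve the chain without being part of it had medians of 0.13 or less as deposited, and after quantile normalization medians of 0.0025, 0.05 and -0.13 in the order given here. Most of the genes on these lists had a mean under 500. The median was 0.08 over all probe sets tested and 0.31 over those with a mean of at least 500. Whether these lists differed from the 44 genes was not tested. A list of 7 genes held inhibitors of the ATP synthase, carriers of ADP and ATP, and the uncoupling protein gene ucp-4. Of these, 4 were above 0 with a median of 0.13. The smallest p was that of ant-1.1, an ADP/ATP carrier, with a log2 fold change of 0.35 (SE 0.13, limma adjusted p = 0.211). Of 7 genes of coenzyme Q synthesis, 5 were above 0 with a median of 0.06, and coq-2 had -0.29 (SE 0.13, adjusted p = 0.279). Of 11 assembly and biogenesis factors, 5 were above 0 with a median of -0.01, and hmg-5, the packaging protein of mitochondrial DNA, had -0.38 (SE 0.13, adjusted p = 0.172).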

How the data were processed

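Total RNA of L4 populations was labelled with biotin and hybridized to the Affymetrix C. elegans array, with 5 arrays of BW1940 and 6 of LT186. Each deposited value is a linear intensity, which the authors estimated for a probe set: probe signals came from Microarray Suite version 5, and in Probe Profiler they were combined with less weight on probe pairs that carried no information and brought to a common level for every array. The mean of an array still ranged from 112 to 142, and 5.10% to 8.38% of its values were at or below 0. The number of arrays limits the precision. The detection calls by which the authors dropped genes they took as absent did not enter.

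Values below 0 were set to 0, 10 was added and log2 was taken, so fold changes of dim genes are understated. The test took in the 18801 probe sets that reached a value of 10 on 2 or more of the 11 arrays, and all 44 genes were among them. The lmFit and eBayes steps of limma (version 3.58.1, run in R version 4.3.3) compared the strains, with no block or covariate and Benjamini-Hochberg adjustment over all probe sets tested. Single genes and ratios of paralogs were tested by an exact two-sided permutation test over the 462 divisions of the arrays into 5 and 6, whose smallest p is 0.00216. Tables were made with Python 3.11.15, numpy 2.4.6 and pandas 2.3.3, figures with matplotlib 3.10.9. The fit was tested on simulated data.

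Genes were named only from the 20766 probe sets with 1 gene symbol, and not from the 887 with several or the 895 with none. All 44 genes matched a RefSeq gene of WBcel235, which gave their chromosomes. Values of single arrays are given for the 2 genes of each group with the smallest limma p and for genes whose strains do not overlap. They are also given for genes lower in BW1940 at an unadjusted p under 0.05 and for both genes of each paralog pair. Every BW1940 array is listed, with the lowest, median and highest value of LT186, or every LT186 array for cyc-2.2 and asb-1. Other pathway genes are named by the smallest p, at most 2 a list. The carrier genes ant-1.3 and ant-1.4 are an exception, picked out after their values were seen. The genes, lists and tests were chosen with earlier results of these data known, although the naming rule itself uses no value. Alternatives were offsets of 1 and 50, no filter, quantile normalization, median centring, the replicate number as a block and array weights. Further ones were a trended and robust eBayes, an equal-variance t-test on the log2 values, the mean of a gene's probe sets and a covariate of sperm score. The last were the 3 arrays of low sperm transcripts left out, LT186 replicates 2 and 4 averaged, and each array left out. For the ratios of paralogs, quantile normalization, the mean of probe sets, the 3 arrays left out and LT186 replicates 2 and 4 averaged were added after seeing the data.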

Additional observations from a re-analysis of the deposited data

Results flagged for a closer look

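Among 88 sets of values (44 genes in each strain), 6 had a lowest or highest array whose gap to the nearest other array was large against the whole range of its strain. Chance gives such a gap in about 1 of 20 sets. LT186 replicate 5 was high for nuo-1 (1136, with 906 next), atp-1 (2064, with 1637 next) and atp-4 (1588, with 1241 next). LT186 replicate 1 was low for nduf-11 (451, with 619 next). These were the LT186 arrays on which the 44 genes had their highest and lowest median deviation, 0.12 and -0.36 on the log2 scale. In BW1940, nuo-2, which encodes a core subunit of complex I, had 1149 on replicate 2 with 776 next, and asg-1 had 639 on replicate 3 with 726 next.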

How the results depend on the processing

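All alternatives left the median log2 fold change of the 44 genes above 0, and quantile normalization moved it from 0.28 to 0.00047, with 0 genes higher and 2 lower at an unadjusted p under 0.05 by limma. Under quantile normalization these genes turned below 0: asg-1 (-0.20), atp-4 (-0.042), atp-5 (-0.029), cox-4 (-0.0055), cox-5A (-0.059), cox-6A (-0.014), cox-6C (-0.022), isp-1 (-0.019), lpd-5 (-0.052), mev-1 (-0.14), nduf-5 (-0.034), nduf-9 (-0.068), nuo-1 (-0.0080), nuo-2 (-0.064), nuo-4 (-0.050), nuo-6 (-0.051), ucr-1 (-0.0017) and ucr-2.2 (-0.036). The replicate block left 12 genes higher and 0 lower. The labels' numbers were not used as pairs: same-numbered arrays deviated with correlations of -0.69, -0.64, -0.30, -0.59 and 0.10, and the consensus correlation was -0.34. Array weights gave 2 lower genes, the equal-variance t-test 1 gene past the adjusted threshold, and the sperm score as a covariate 2 lower and 3 past it. Without the 3 arrays of low sperm transcripts 9 genes were higher and 3 lower. Leaving out each array gave 11 to 24 higher (11 without BW1940 replicate 5, 12 without LT186 replicate 1), 0 to 1 lower, 0 past the adjusted threshold and a median of 0.22 to 0.30. By limma 191 probe sets of all passed the adjusted threshold, 62 with the replicate block, 78 to 151 with 1 array left out, 366 with an offset of 50, 416 with no filter, 443 with array weights, 381 by the t-test, 1625 with the covariate and 83 without the 3 arrays.

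The sign of cyc-2.2 turned with an offset of 50 (-0.057), array weights (-0.47), the covariate (-0.36), the 3 arrays left out (-0.79) and LT186 replicates 2 and 4 averaged (-0.38), and ran from -0.42 to 0.93 with 1 array left out. With 1 array left out, asg-1 ran from -0.0013 to 0.10, cox-15 from -0.036 to 0.16 and cox-19 from -0.20 to 0.094. Array weights put cox-19 at 0.077, and the 3 arrays left out put asg-1 at -0.020. The ratio of cyc-2.2 to cyc-2.1 differed by 0.62 with an offset of 1, by 0.17 after quantile normalization and by -0.82 to 0.54 with 1 array left out. The cause of these changes was not tested. Among the complex IV assembly genes, cox-10 had a mean of 39.8 in BW1940 and 31.2 in LT186, near the offset of 10, which limits what its fold change can show.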
